A study of Mus musculus with 2 samples.

Results

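The genes of glycolysis, of the pentose phosphate pathway and of the cell's response to low oxygen were described on 2 arrays of Vγ6 γδ T cells. They were chosen by name: 32 genes were listed for their place in these pathways, and every deposited row that the platform annotates with 1 of them was taken, including rows that name several genes. Of the 32 genes, 29 had a row, 34 rows in all, out of 32195 genes on the platform. The signals of Gpi1, Eno1 and G6pdx were not analysed here, although the sequences around their start sites are among those counted below. The WT array held RNA of Vγ6 γδ T cells sorted by flow cytometry out of thymi of C57BL/6 mice, 0-day-old. The MHC class II KO array held RNA of the same cell type, sorted from 0-day-old mice of the same strain that lack MHC class II, which displays peptides on the cell surface for CD4 T cells. Vγ6 γδ T cells arise in the perinatal thymus and carry a γδ receptor with the Vγ6 chain, and many of them make interleukin 17. The labels give neither the class II gene that was disrupted nor the number of animals behind each array. The study's question was which genes these cells express differently when MHC class II is missing. With 1 array per genotype there is no spread between replicates, no error and no test, and each difference below describes these 2 arrays.

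Glycolysis turns glucose into pyruvate in the cytosol, and lactate dehydrogenase can pass pyruvate on to lactate, which lets the chain run without oxygen. The pentose phosphate pathway branches off after hexokinase and supplies NADPH and ribose for nucleotides, so dividing cells draw on both. HIF-1α, the protein of Hif1a, is a transcription factor that is degraded while oxygen is plentiful, after prolyl hydroxylases of the EGLN family have marked it, and that otherwise switches on many genes of glycolysis. In T cells HIF-1α and glycolysis are known to be tied to activation and to the interleukin 17 programme of CD4 T cells, while γδ T cells that make interleukin 17 are known to lean more on mitochondrial metabolism.

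The values as deposited are linear intensities, and each is given here as a signal or as its log2. A difference always subtracts the log2 signal in WT cells from that in MHC class II KO cells. Signals of different genes come from different probes, so their heights are not compared with one another. The background, the 95th percentile of 1228 olfactory receptor rows, was 5.94 for WT and 5.86 for MHC class II KO on the log2 scale. The median difference was 0.04 over the 15705 genes that passed it on at least 1 array, and it was 0.08 for the 10460 protein-coding genes among them. Of a list of 14 markers for Vγ6 and interleukin 17-type γδ T cells, the 13 with a row were all above background on at least 1 array. The class II gene H2-Ab1 was lower in MHC class II KO cells by a log2 difference of -1.01, without reaching background.

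Of the 29 genes, 28 were above background on both arrays, and Eno2, which encodes the neuronal enolase, was below it on both. As a group they moved little. Of the 28, 11 had a difference above 0, 16 below 0 and Bnip3 exactly 0, and the median was -0.07. In comparison, 35.5% of protein-coding genes above background had a difference below 0, against 57.1% of these genes. The median of the 28 was -0.11 after centring on all genes, -0.05 after quantile normalization and -0.05 after a loess correction, so it lay below 0 under each scaling. A difference of 0.25 or more, in either direction, was seen for 9 of them.

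Past 1.5-fold, Egln1 was higher in MHC class II KO cells and Hif1a was lower, and the other 26 genes were within 1.5-fold. That is 3.57% of the 28 genes in each direction. Among all genes above background 4.16% were higher by 1.5-fold or more and 3.34% lower by as much, and among protein-coding genes 4.48% and 2.01%. The share of these genes past 1.5-fold was thus near the background in both directions and is not a result about the group. No gene of the group was 2-fold apart, a threshold that 0.866% of all genes passed upwards and 1.14% downwards.

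**Figure D1:**
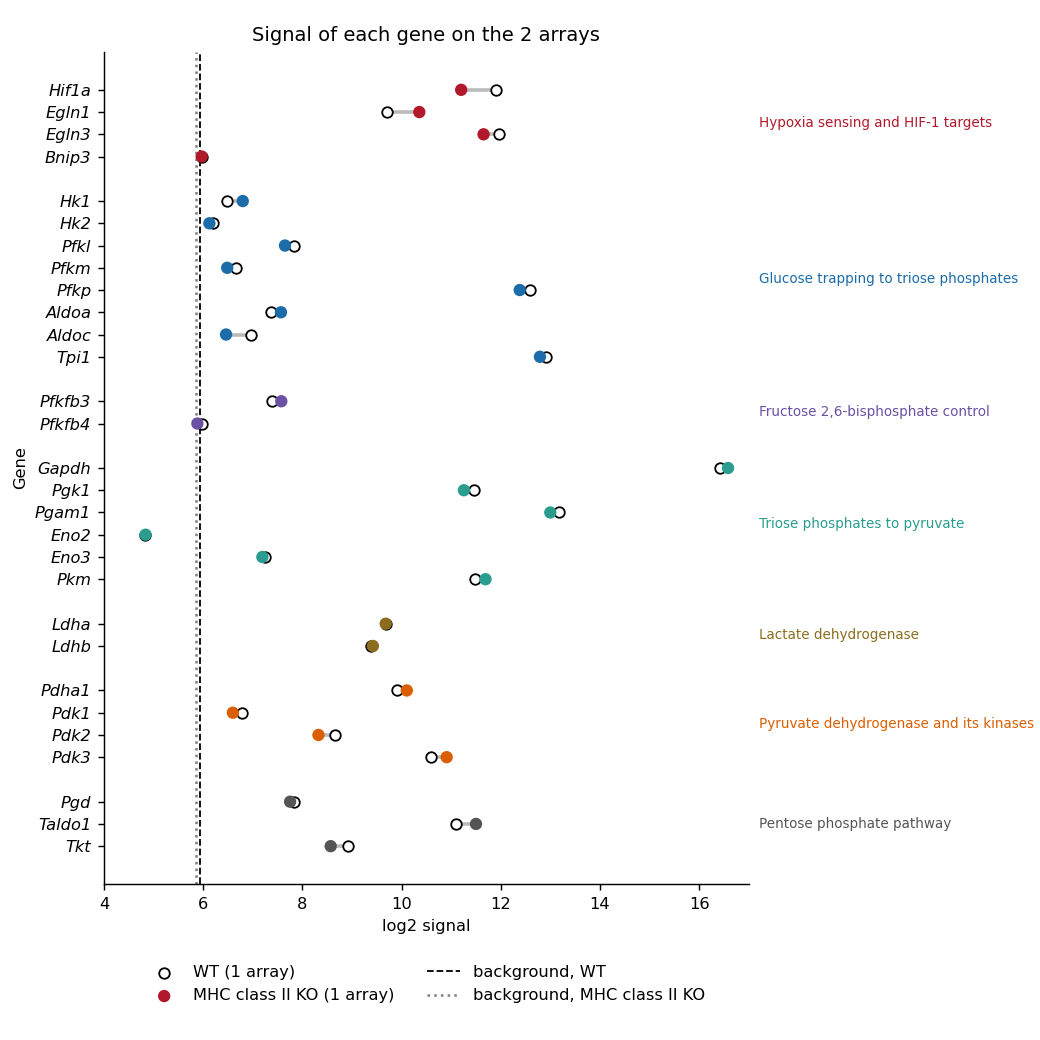
The log2 signal of each of the 29 genes with a row, in WT cells (open circles) and MHC class II KO cells (filled circles, coloured by role), 1 array each. The vertical lines are the background of each array. The pairs of circles lie close together for most genes, Hif1a and Egln1 are the widest apart and in opposite directions, and Eno2 lies left of both lines.

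The genes of oxygen sensing held both ends of the range. Hif1a had a signal of 3805 in WT and 2354 in MHC class II KO cells, log2 values of 11.89 and 11.20. It was 1.62-fold lower there, a difference of -0.69 that ran from -0.73 to -0.69 over the scalings. Egln1, which encodes PHD2, the main hydroxylase that marks HIF-1α for degradation when oxygen is present, went the other way. Its signal was 838 in WT and 1312 in MHC class II KO cells, log2 values of 9.71 and 10.36, which is 1.57-fold higher. The difference of 0.65 ran from 0.61 to 0.65 over the scalings. Of protein-coding genes above background, 1.46% had a difference as low as that of Hif1a or lower, and 3.37% one as high as that of Egln1 or higher.

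Both are far above background, so the differences do not rest on dim rows. In bands of mean log2 signal, 1.34% of 1268 protein-coding genes between 11 and 13, the band of Hif1a, were at least 1.5-fold lower. Of 2754 genes between 9 and 11, the band of Egln1, 5.27% were at least 1.5-fold higher. Being at least 1.5-fold higher was thus more common in the band of Egln1 than being at least 1.5-fold lower in the band of Hif1a. In RNA from a sorted population, fewer cells that express a gene and less RNA per cell cannot be told apart. A second row that names Hif1a together with the predicted gene Gm15283 was below background on both arrays and gives no fold.

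Egln3 and Bnip3 are targets that HIF-1 switches on in many cells. Egln3, which encodes the inducible hydroxylase PHD3, had a signal of 3973 in WT and 3219 in MHC class II KO cells, a difference of -0.30. It stood opposite to its family member Egln1, and the gap between their differences was 0.95. Bnip3, which encodes a mitochondrial protein that promotes the removal of mitochondria, was listed at 62.7 on both arrays, as 845 of 65956 rows hold the same value on both. It was barely above background, by 0.03 and 0.11 on the log2 scale, and its sign turned with the scaling.

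All 4 of these genes hold the letters ACGTG in the window from 250 bases before to 50 bases after their start. These letters are a form of the core of the hypoxia response element, to which HIF-1 binds. The differences of the 4 genes were -0.69, 0.65, -0.30 and 0.00. The windows are shown with these letters marked, and Ldha is added as a glycolysis gene with more matches and a difference of 0.00. Whether HIF-1 acts on these genes in the cells was not tested. They are RefSeq sequences of GRCm38.p6, 5′ to 3′ on the strand of the gene, with every ACGTG on either strand (so also CACGT) in capitals. The windows lie at chr12:73907617-73907916 on the + strand for Hif1a, chr8:124949205-124949504 on the - strand for Egln1 and chr12:54203825-54204124 on the - strand for Egln3. Those of Bnip3 and Ldha lie at chr7:138909457-138909756 on the - strand and chr7:46845554-46845853 on the + strand.
Hif1a: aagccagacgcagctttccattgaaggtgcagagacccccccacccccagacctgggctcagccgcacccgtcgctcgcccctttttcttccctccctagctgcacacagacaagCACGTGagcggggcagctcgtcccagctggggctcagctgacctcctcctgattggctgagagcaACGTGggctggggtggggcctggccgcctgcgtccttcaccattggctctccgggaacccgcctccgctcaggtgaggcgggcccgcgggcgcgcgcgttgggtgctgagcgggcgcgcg
Egln1: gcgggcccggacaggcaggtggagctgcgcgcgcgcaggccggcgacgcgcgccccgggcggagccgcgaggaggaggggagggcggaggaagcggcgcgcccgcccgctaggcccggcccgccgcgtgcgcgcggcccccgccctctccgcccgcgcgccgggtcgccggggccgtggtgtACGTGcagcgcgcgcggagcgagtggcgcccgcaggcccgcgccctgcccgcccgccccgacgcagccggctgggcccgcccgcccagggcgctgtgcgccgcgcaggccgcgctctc
Egln3: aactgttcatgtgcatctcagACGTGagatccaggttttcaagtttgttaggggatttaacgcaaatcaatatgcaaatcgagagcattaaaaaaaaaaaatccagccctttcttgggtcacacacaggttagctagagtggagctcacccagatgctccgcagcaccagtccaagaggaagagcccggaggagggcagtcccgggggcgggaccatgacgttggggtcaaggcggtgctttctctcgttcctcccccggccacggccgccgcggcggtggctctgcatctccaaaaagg
Bnip3: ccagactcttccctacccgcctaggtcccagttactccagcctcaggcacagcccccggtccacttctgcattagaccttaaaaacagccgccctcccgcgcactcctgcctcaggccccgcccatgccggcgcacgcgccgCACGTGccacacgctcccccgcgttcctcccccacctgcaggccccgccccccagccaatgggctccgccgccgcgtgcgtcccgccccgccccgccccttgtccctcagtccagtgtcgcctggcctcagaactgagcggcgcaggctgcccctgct
Ldha: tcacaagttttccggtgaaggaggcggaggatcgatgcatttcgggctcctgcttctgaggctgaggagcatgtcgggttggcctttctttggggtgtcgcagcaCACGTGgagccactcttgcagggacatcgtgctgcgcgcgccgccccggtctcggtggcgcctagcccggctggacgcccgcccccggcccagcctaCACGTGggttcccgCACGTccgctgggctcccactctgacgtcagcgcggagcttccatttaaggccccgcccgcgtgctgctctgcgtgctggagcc

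Counted from the start site as 1, the match of Egln1 begins at -68 and that of Egln3 at -229. In Hif1a the palindrome CACGTG, which holds ACGTG on both strands and is also the E-box that MYC binds, begins at -135 and a further match at -70. In Bnip3 the palindrome begins at -108. Ldha holds it at -145 and at -48, with a further match at -34. Taking the first listed window of each of the 32 genes, 15 held ACGTG on either strand (46.9%), against 19.7% of 27025 genes with a window and 25.4% of 8735 protein-coding genes above background. CACGTG was in 5 of the 32 first windows (15.6%) and in 10.1% of those protein-coding genes. The 14 genes above background with a match had a median of -0.13 and ran from -0.69 to 0.65, and the 14 without one had a median of -0.07 and ran from -0.36 to 0.41. A match is a stretch of letters and does not show that a factor binds there. The form GCGTG of the core was not counted, so a window without ACGTG may still hold a core.

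**Figure D2:**
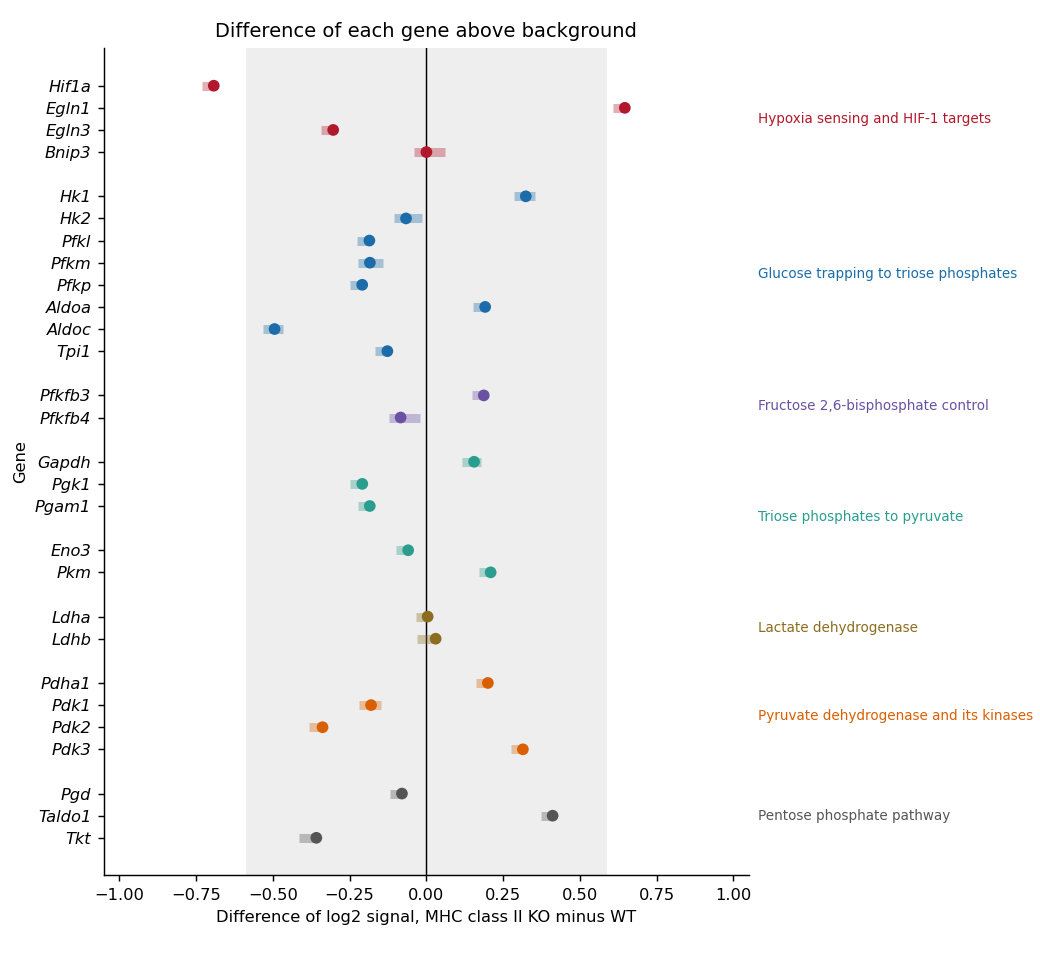
The difference of each of the 28 genes above background, in log2 signal, MHC class II KO minus WT (points), with the range over 4 scalings (pale bars); colours and labels give the role. The grey band marks differences under 1.5-fold. Egln1 lies to the right of the band and Hif1a to the left, and the pale bars cross 0 for Bnip3, Ldha and Ldhb.

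The upper part of glycolysis, which traps glucose and splits it into triose phosphates, was lower for 6 of 8 genes above background, with a median of -0.16 that stayed below 0 under each scaling. The 3 genes for subunits of phosphofructokinase, the enzyme of the committed step, had like differences. Pfkp, the platelet-type subunit, had log2 signals of 12.59 in WT and 12.38 in MHC class II KO cells. Pfkl, the liver-type subunit, had 7.83 and 7.65, and Pfkm, the muscle-type subunit, had 6.67 and 6.48. Their differences were -0.21, -0.19 and -0.18, all below 0 under each scaling and each within 1.5-fold. Pfkm was dim, 0.73 above background in WT and 0.62 in MHC class II KO cells on the log2 scale. Tpi1, which encodes the enzyme that interconverts the triose phosphates, went from a log2 signal of 12.92 to 12.79, a difference of -0.13.

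Unlike those subunits, the 2 hexokinase genes lay on opposite sides of 0, and so did the 2 aldolase genes. Of the hexokinases, Hk1, the widely expressed form, had log2 signals of 6.47 in WT and 6.80 in MHC class II KO cells, a difference of 0.32. Hk2, the inducible form that HIF-1 and MYC are known to raise, had 6.19 and 6.12, a difference of -0.07. Both lie within 1 log2 unit of background, where a difference can be compressed. Of the aldolases, Aldoa went from 7.38 to 7.57 and Aldoc from 6.96 to 6.46, differences of 0.19 and -0.49. Aldoc was dim too, 0.60 above background in MHC class II KO cells on the log2 scale. The gap between the differences of the aldolases was 0.69. For 160 genes with 2 rows above background on both arrays, the gap between the differences of the rows had an SD of 0.24. Of these 160 genes, 1.88% had a gap of 0.65 or more. Both rows of a gene measure the same RNA, so this spread leaves out variation between samples and cannot gauge the aldolase gap.

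Fructose 2,6-bisphosphate is the strongest activator of phosphofructokinase, and the enzymes of the Pfkfb genes make and remove it. Pfkfb3 had a log2 signal of 7.39 in WT and 7.57 in MHC class II KO cells, a difference of 0.19. Pfkfb4 was at 5.97 and 5.88, less than 0.03 above background on both arrays, so its difference of -0.08 is hardly a measurement.

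The lower part of glycolysis, from triose phosphates to pyruvate, had a median of -0.06 over 5 genes above background, 2 of them higher and 3 lower. Gapdh, the glyceraldehyde 3-phosphate dehydrogenase gene often used as a reference, went from a log2 signal of 16.43 to 16.58, a difference of 0.16. Its signals of 88034 and 98037 lie above 65535, the ceiling of a 16-bit scanner, so they are not plain readings and the difference may be compressed or stretched. Pkm, which encodes the pyruvate kinase that ends the chain, was higher by 0.21, with log2 signals of 11.48 and 11.69. Pgk1 and Pgam1, the phosphoglycerate kinase and mutase genes, were lower by -0.21 and -0.18. Eno3, the muscle enolase gene, had 7.25 and 7.19, a difference of -0.06. Gapdh and Pkm were thus higher and Pgk1, Pgam1 and Eno3 lower under each scaling, and none of them reached 1.5-fold.

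Several of these enzymes have processed copies in the genome whose transcripts probes cannot always tell apart. For Gapdh, a second row that also names the predicted gene Gm7336 differed by 0.13, beside 0.16 for the row of Gapdh alone. Pgk1 had a pair of rows, 1 whose identifier places it on chromosome X, where the gene lies, and 1 placed on chromosome 12, and they differed by -0.18 and -0.21. The brighter row, on chromosome 12, was the one used. Pgam1 had rows at -0.18 (alone), -0.14 (with Pgam1-ps2) and -0.38 (with Gm8910). The sign was thus the same in every row of these 3 genes, although rows that share probes or transcripts are not independent measurements.

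Lactate dehydrogenase had the smallest differences of the enzyme groups. Ldha, which encodes the subunit that favours lactate, had signals of 818 in WT and 820 in MHC class II KO cells. Ldhb, which encodes the other subunit, had 671 and 685. The differences of 0.00 and 0.03 both changed sign with the scaling, so neither direction is given for these genes.

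Pyruvate enters mitochondrial oxidation through the pyruvate dehydrogenase complex, which kinases of the PDK family switch off. Pdha1, the gene for the α subunit of its first enzyme, was higher by 0.20, with log2 signals of 9.90 in WT and 10.10 in MHC class II KO cells. The kinases were divided. Pdk3 went from a log2 signal of 10.59 to 10.91, a difference of 0.31, and Pdk2 from 8.66 to 8.32, a difference of -0.34. Pdk1, the kinase gene that HIF-1 is best known to switch on, went from 6.78 to 6.60, a difference of -0.18. It was dim, 0.84 above background in WT and 0.73 in MHC class II KO cells on the log2 scale. The gap between Pdk3 and Pdk2 was 0.65, and the direction of each was the same under every scaling.

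The pentose phosphate pathway also held genes that stood apart from one another. Taldo1 and Tkt encode transaldolase and transketolase, the enzymes of its non-oxidative branch, which link it back to glycolysis. Taldo1 had signals of 2178 in WT and 2897 in MHC class II KO cells, 1.33-fold higher, and Tkt had 487 and 380. The differences were 0.41 and -0.36, and the gap between them was 0.77. The row of Tkt also names the microRNA gene Mir3076. Pgd, which encodes the second dehydrogenase of the oxidative branch, went from a log2 signal of 7.83 to 7.75, a difference of -0.08. The median over these 3 genes was -0.08 and lay below 0 under each scaling, but without the row of Tkt it was 0.17.

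**Figure D3:**
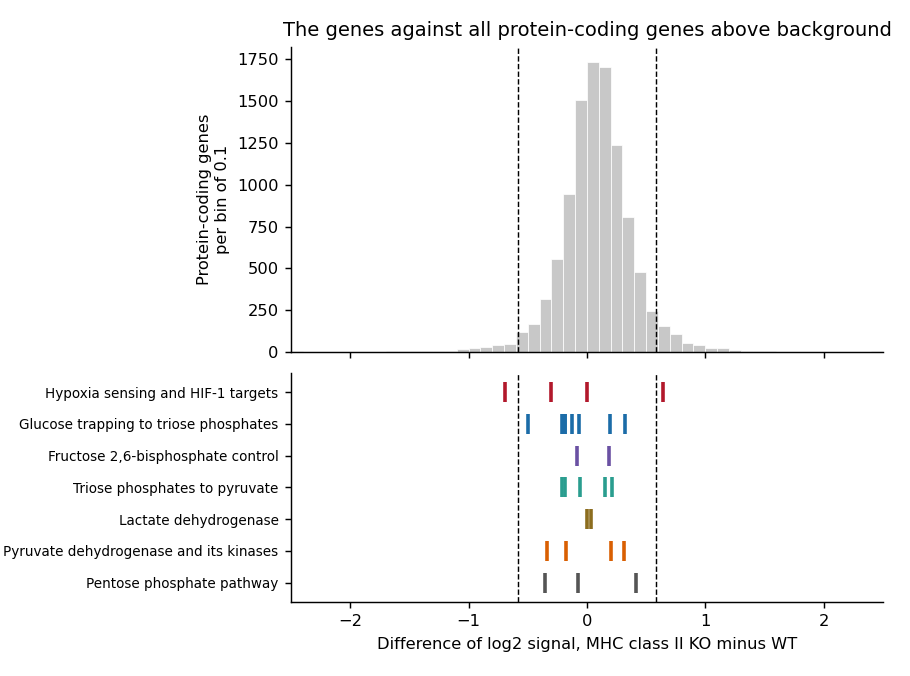
The number of protein-coding genes above background per bin of 0.1 of the difference in log2 signal, MHC class II KO minus WT (top), and the differences of the 28 genes by role, 1 tick per gene (bottom). Dashed lines mark 1.5-fold. Most ticks fall within the bulk of the 10460 protein-coding genes, whose median is 0.08, and 1 tick lies beyond each dashed line.

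Further genes of the same pathways, listed by their known roles, were counted in the same way. Of 9 other glycolysis genes above background, 7 were above 0 and 2 below, with a median of 0.09, and 1 was at least 1.5-fold higher. That gene was Pgp, which encodes a phosphatase that clears by-products of glycolysis, with log2 signals of 9.51 and 10.15 and a difference of 0.64. Pgm2, a phosphoglucomutase gene, was higher by 0.51, and Galm, the galactose mutarotase gene, by 0.07. Of 8 other genes of pyruvate entry none reached 1.5-fold. Their median was 0.07, with Pdhb, the β subunit partner of Pdha1, at 0.16 and Dld, the gene for the dehydrogenase subunit shared with other complexes, at 0.06. Of 8 other pentose phosphate genes none reached 1.5-fold either. Their median was 0.07, and the genes Prps1 and Prps2, whose enzymes turn ribose phosphate into the precursor of nucleotides, differed by -0.12 and 0.32. These 3 medians were above 0 under each scaling. As deposited they lay near the median of 0.08 of all protein-coding genes above background, so they do not set these lists apart.

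Of 26 other genes of hypoxia sensing and response above background, 8 were above 0 and 17 below, with a median of -0.09 that stayed below 0 under each scaling. At least 1.5-fold lower were Hilpda and Cited2, and at least 1.5-fold higher was Ankrd37. Hilpda, a HIF-1 target whose protein sits on lipid droplets, had log2 signals of 11.43 in WT and 10.72 in MHC class II KO cells, a difference of -0.71. Cited2, which encodes a protein that competes with HIF-1α for the coactivator p300, had 12.67 and 12.05, a difference of -0.62. Ankrd37, also a HIF-1 target, had 7.24 and 8.03, a difference of 0.78. Mif, which encodes a cytokine, differed by -0.17, and Rora, which encodes the nuclear receptor RORα, by -0.37. The signal of Mif in WT cells, 70711, lies above the scanner ceiling of 65535, so its difference may be compressed or stretched. HIF-1 targets thus lay on both sides of 0, as did the genes of oxygen sensing above.

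Markers of other cells and of division differed on the same arrays. Of 11 double positive and αβ thymocyte markers above background on at least 1 array, each differed by more than 0, with a median of 0.74. By measured values 8 were past 1.5-fold, and 7 when a marker above background on 1 array is taken at its bound. Their summed signal, over the 12 of 15 markers with a row, was 15729 in WT and 35371 in MHC class II KO cells, most of it from Cd8b1, a CD8 chain gene. Without Cd8b1 the sums were 5095 and 7769. Dntt was above background in MHC class II KO cells alone, at least 3.68-fold higher, Ptcra was likewise above it there alone, at least 1.41-fold higher, and Rag2 was below it on both. All 19 mitosis genes with a row were above 0 and 13 were past 1.5-fold, with a median of 0.72 and a summed signal of 95841 and 146129 (37598 and 64318 without Mki67). The signal of Mki67 in MHC class II KO cells, 81811, lies above the scanner ceiling of 65535. The part of thymocytes or of dividing cells in the differences of the metabolic genes was not tested.

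Of 14 dendritic cell and macrophage markers with a row, 4 were above background, with Irf8 at 1.11 and Cd68 at 0.91, and the list had a summed signal of 916 in WT and 1385 in MHC class II KO cells. Csf1r, Adgre1 and C1qa, which define macrophages, were below background on both arrays. Of 9 B cell markers 3 were above background on at least 1 array. Ighm was at 1.41, and Cd79b, with log2 signals of 10.08 in WT and 10.19 in MHC class II KO cells, at 0.11. Vpreb1 was above background in WT cells alone, and Cd79a, Ms4a1, Pax5, Ebf1, Blnk and Igll1 were below it on both. The summed signal of the B cell list was 16857 and 42586 (1294 and 1359 without Ighm). Of 11 thymic epithelial cell markers 3 were above background on at least 1 array, and the summed signal was 483 and 396. Krt8 and Epcam were above background in WT cells alone, at least 1.18-fold and 1.17-fold lower in MHC class II KO cells. Of 10 granulocyte and mast cell markers 5 were above background (median -0.15, summed signal 771 and 686). Of 10 mesenchymal and endothelial markers 3 were (median 0.05, summed signal 3622 and 3403), and of 9 rows for red blood cells and platelets 4 (median 0.05, summed signal 554 and 691). Of those 4 rows, 2 were above 0 and 2 below. A row naming Hbb-bs with other β-globin genes had log2 signals of 7.08 in WT and 8.16 in MHC class II KO cells, a difference of 1.09. Without it the summed signal for red blood cells and platelets was 419 and 404. In the γδ T cell list the median was 0.03, turning to -0.01 after centring, and Il17a was the gene past 1.5-fold, at -1.57.

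**Figure D4:**
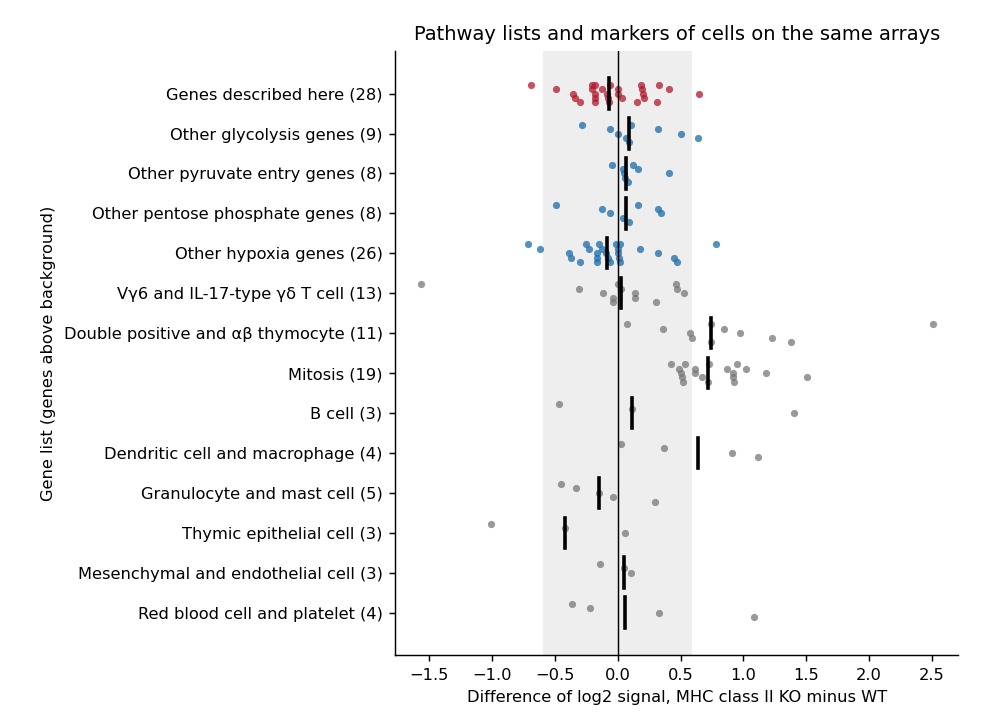
Differences in log2 signal, MHC class II KO minus WT, of the genes described here (red), of other genes of the same pathways (blue) and of marker lists for cells and division (grey), 1 point per gene above background on at least 1 array, with the number of genes in brackets and the median as a black bar. The grey band marks differences under 1.5-fold. The genes described here centre on -0.07, while the bars for thymocyte markers and mitosis lie at 0.74 and 0.72, outside the band.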

How the data were processed

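RNA of 1 WT and 1 MHC class II KO sample was measured on GeneChip arrays after biotin labelling, per the labels. RMA (robust multi-array average) and Affymetrix Expression Console 1.4.1 are named per the submitters' processing notes; its settings and the rows' genome build were not given in the sources used here. The deposited intensity values are linear, 1 per row for 65956 rows, and their log2 was taken. The number of arrays limits the precision.

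Rows were named by GEO's annotation of the platform, whose symbols may be outdated and were updated by gene identifier through RefSeq's GRCm38.p6 table (22818 rows matched, 827 changed). A gene took its brightest row with its symbol alone, otherwise its brightest row with several symbols, and was kept when above background on at least 1 array. Counts used a 1.5-fold threshold. The text names all 32 genes and, of the other pathway lists, genes past 1.5-fold or of highest signal. Of the marker lists it names only some such genes, besides markers below background on at least 1 array, chosen later. The genes and lists were chosen with earlier results of these data known.

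Alternatives were 3 scalings (median centring, quantile, loess with fraction 0.3), raising values to background, averaging rows, filters, a 99th percentile background, leaving out rows with several symbols, and 2-fold. Protein-coding genes as the comparison were added after seeing the data. The steps were tested on simulated data, with planted changes larger than any difference of these genes and with dim genes left out. That test does not show that differences as small as those described here are recovered. Python 3.11.15, pandas 2.3.3 and statsmodels 0.14.6 were used.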

Additional observations from a re-analysis of the deposited data

How the results depend on the processing

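Differences, medians and counts past 1.5-fold were recomputed under the alternatives. A value was taken as unchanged when it moved by less than 0.24 on the log2 scale, the SD of the gap between rows of 1 gene. A count was taken as unchanged when it moved by no more than 1.5 times. By that measure 202 group values and counts and 244 values of single genes were unchanged and 6 moved. Many of the 244 could not move. The 28 genes were above background on both arrays, so raising values to background could not change their differences. Filters could only keep or drop a gene. Averaging rows changed only Pgk1, from -0.209 to -0.195, and leaving out rows with several symbols only removed Tkt. The scalings alone could shift every gene, so the count of 244 overstates how far single genes were tested. Of the 28 genes, 19 lay within 0.25 of 0, so the measure does not show that a direction held. Among the unchanged values, the lactate dehydrogenase median went from 0.02 to -0.02 after centring, and that of pyruvate dehydrogenase from 0.01 to -0.03. Without a background filter the median of other pentose phosphate genes went from 0.07 to -0.01, and that of other glycolysis genes from 0.09 to 0. The pentose phosphate median went to 0.17 when rows naming several symbols, and so Tkt, were left out. At 2-fold the counts went to 0 for the 32 genes in both directions, for other glycolysis genes that were higher, and for other hypoxia genes in both directions. No paired analysis was possible because each group holds 1 array. Bnip3, Pfkfb4 and Hk2 lie close to background, which limits what their differences show. With the 99th percentile background these genes no longer passed it, and neither did Hk1, Pfkm, Aldoc and Pdk1. No scaling moved the median of all genes by over 0.1.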
